A study of Coturnix japonica with 15 samples.

Results

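Enzymes that attach a sulphate, sugar or glutathione group to small molecules were examined in liver RNA from embryonic day 9 of the Japanese quail, Coturnix japonica. The genes were chosen by symbol, as those whose entry in NCBI's quail gene table begins with CYP, UGT or SULT and a digit, or with GST and a class letter, leaving out CYP51A1. Of 20308 gene IDs in the deposited table, 6 met that rule. They are the sulphotransferase genes SULT1C4, SULT4A1 and SULT6B1, the glycosyltransferase gene UGT8, and the glutathione transferase genes GSTK1 and GSTZ1. The rule found 0 cytochrome P450 genes under a CYP symbol, so none is analysed here and the members are called conjugating enzyme genes. The table gives 3 further gene IDs a locus number as symbol and a CYP name only as a synonym, letter case ignored; all 3 have counts, and they were left out because the rule reads the symbol. The 0 therefore counts symbols and does not mean that no P450 transcript was counted.

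Eggs were injected once, with 10 µl into the air cell, and then incubated. The first group was given DMSO, the solvent, and the others ethinylestradiol, a synthetic oestrogen, at 3.33 or 33.3 µg per g of egg weight. Each group held 5 libraries of left-lobe liver RNA, 15 in total. Nothing in the labels states that the libraries are from different embryos, so p-values measure the spread between these libraries. Neither the sex of the embryos nor a batch is labelled.

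Conjugation is the step of metabolism that joins a polar group to a steroid, bile acid, drug or toxin and so makes it easier to excrete. Sulphotransferases take sulphate from the donor molecule PAPS, UDP-glycosyltransferases take a sugar from a nucleotide sugar, and glutathione transferases use glutathione. Oestrogens are themselves cleared in vertebrate liver by hydroxylation through P450 enzymes followed by sulphation and glucuronidation. Several members with these family names have other main duties. UGT8 makes the lipid galactosylceramide, GSTZ1 works in the breakdown of tyrosine, and SULT4A1 is known in mammals as a brain protein without a well-defined substrate.

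Libraries held 21726180 to 32140105 estimated counts with solvent, 22075422 to 37046518 with the lower dose and 21715263 to 54591387 with the higher one. Hepatocyte markers were abundant in every library: the 7 of 9 listed markers with an entry, albumin (ALB) among them, summed to between 79500 and 194000 CPM (counts on scaled library totals set to 1e+06). The sums were lowest in 3.33 µg/g replicate 4, 79500 CPM, and 33.3 µg/g replicate 1, 98000 CPM, and ALB took 4.85% and 5.87% of the counts there. In both, ALB, TF, APOA1, FGA and FGB lay below every solvent library. APOB went the other way, at 18700 and 16800 CPM against 6140 to 7820 CPM with solvent, and was above every solvent library throughout both doses. AHSG was at 174 and 909 CPM, against 224 to 694 CPM with solvent. Low FGA and FGB levels were not particular to these 2 libraries. Both genes lay below every solvent library in every treated library except 3.33 µg/g replicate 1. APOA1, TF and ALB also lay below every solvent library in some of the other treated libraries. Fold changes without these 2 libraries of low ALB share are given beside the results for the 6 genes and for the main related genes.

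None of the 6 conjugating enzyme genes passed the test at either dose. All 6 were tested with edgeR's quasi-likelihood test at an adjusted p under 0.05, and 0 passed at 33.3 µg/g against solvent, where 1.08% of all 14508 tested genes did. The lower dose gave 0 of 6 against solvent, beside 1.38% of all tested genes. Between the doses 0 of 6 passed, as did 0% of all tested genes, with 805 of those at an unadjusted p under 0.05. DESeq2 and limma-voom also called 0 of the 6 in each comparison, and over all genes between the doses they called 19 and 0. Against solvent they called 386 and 111 of all tested genes at 33.3 µg/g, and 656 and 134 at 3.33 µg/g. At an unadjusted p under 0.05 there were 3 members at 33.3 µg/g (SULT4A1, UGT8 and GSTZ1), 2 at 3.33 µg/g (SULT4A1 and GSTZ1) and 0 between the doses, where all tested genes gave 10.8%, 14.6% and 5.55%. The median log2 fold change of the 6 was 0.27 at 33.3 µg/g against 0.00 over all tested genes, and 0.17 at 3.33 µg/g against 0.00. SULT6B1 (0.56 and 0.47) had only 3 to 23 estimated counts per library. It passed the low-count filter with all groups together, but not when either dose was fitted with solvent alone. The medians rest on 6 genes and were not tested, so no shift of the 6 as a set is read from them. In no member did a dose group lie wholly above or below the solvent group. Over all tested genes, 1.84% lay wholly higher and 1.07% wholly lower at 33.3 µg/g, and 2.3% and 1.6% did so at 3.33 µg/g. These are bulk samples, in which fewer cells of a type and less RNA per cell cannot be told apart.

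**Figure D1:**
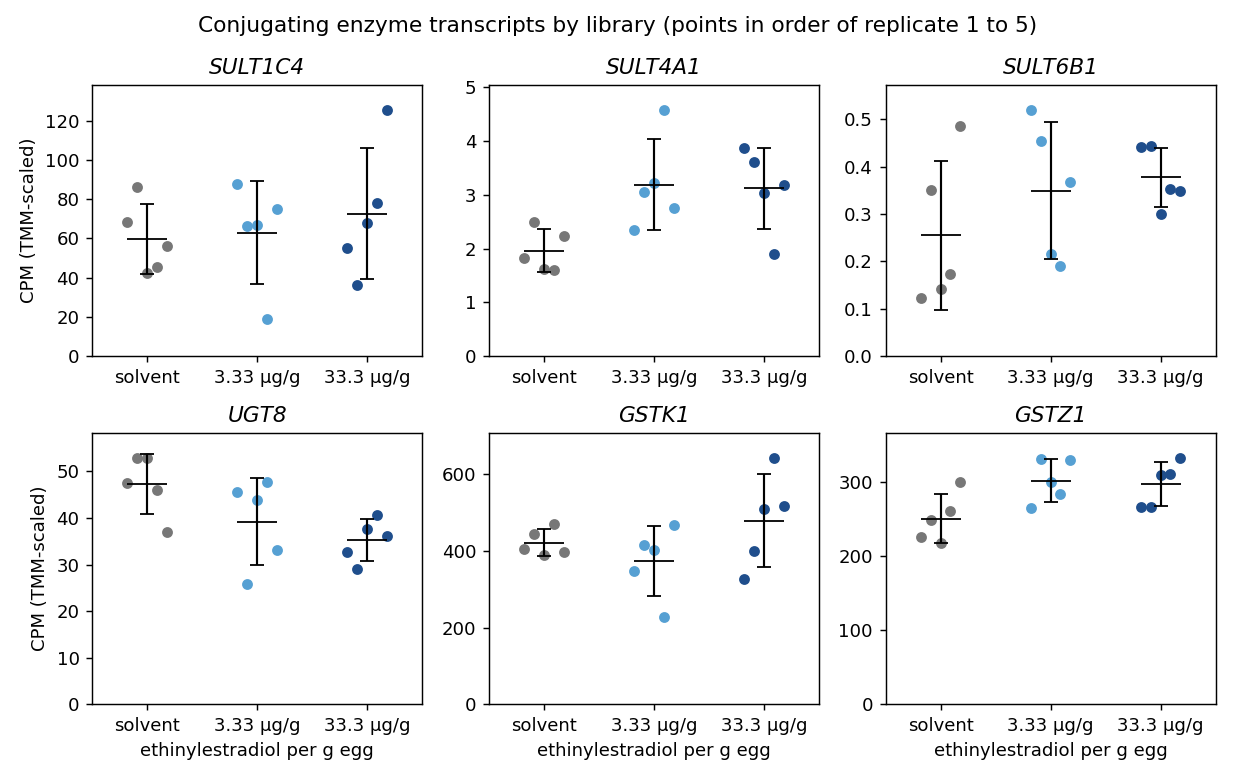
CPM on TMM-scaled totals of the 6 conjugating enzyme genes (vertical axes, from 0) in each library of the solvent, 3.33 µg/g and 33.3 µg/g groups, with the mean (wide bar) and SD (whiskers) of 5 libraries. SULT1C4, SULT4A1, SULT6B1 and GSTZ1 had higher means and UGT8 lower means at both doses than with solvent. The GSTK1 mean was higher at 33.3 µg/g and lower at 3.33 µg/g, and the groups overlapped in every panel.

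SULT1C4 is a cytosolic sulphotransferase whose human counterpart sulphates phenolic compounds and is found in fetal tissues. Its levels were 68.3, 86.3, 42.5, 45.3 and 56 CPM in solvent replicates 1 to 5, and 87.7, 66.5, 66.9, 18.8 and 75.0 CPM in the libraries at 3.33 µg/g. At 33.3 µg/g they were 55.3, 36.3, 67.8, 78.3 and 125.7 CPM. The lowest library of all was 3.33 µg/g replicate 4 and the highest was 33.3 µg/g replicate 5, so that the dose groups spread beyond the solvent group in both directions. The mean was 72.7 ± 33.5 CPM at 33.3 µg/g and 59.7 ± 18 CPM with solvent (SD, n = 5 each), a log2 fold change of 0.28 with a 95% confidence interval of −0.49 to 1.05 (edgeR adjusted p = 0.870). At 3.33 µg/g the mean was 63.0 ± 26.1 CPM (SD, n = 5) and the log2 fold change against solvent 0.08, with an interval of −0.69 to 0.85 (edgeR adjusted p = 0.948). Without the 2 libraries of low ALB share these log2 fold changes were 0.37 and 0.31, and neither passed (edgeR adjusted p = 0.749 and 0.71). The interval at 33.3 µg/g ran from a 0.713-fold to a 2.08-fold level.

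SULT1C4 was also the member with the widest fitted spread between replicates. Its biological coefficient of variation was 39.5%, wider than that of 85.1% of all tested genes, against 13.1% for GSTZ1 and 18% for UGT8. The gene had 497 to 3036 estimated counts per library.

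SULT4A1 transcripts were scarce. They stood at 1.83, 2.5, 1.62, 1.60 and 2.24 CPM in the solvent libraries, and at 2.34, 3.05, 3.22, 4.59 and 2.75 CPM at 3.33 µg/g. At 33.3 µg/g they stood at 3.87, 3.61, 3.03, 1.90 and 3.18 CPM. At each dose 4 of 5 libraries lay above every solvent library, and the exceptions were 3.33 µg/g replicate 1 and 33.3 µg/g replicate 4. The mean was 3.12 ± 0.76 CPM at 33.3 µg/g and 1.96 ± 0.40 CPM with solvent (SD, n = 5 each), a log2 fold change of 0.67 (SE 0.23, 95% interval 0.18 to 1.17, edgeR adjusted p = 0.256). The mean at 3.33 µg/g was 3.19 ± 0.85 CPM (SD, n = 5) and the log2 fold change against solvent 0.70 (SE 0.23, 95% interval 0.21 to 1.19, edgeR adjusted p = 0.160). SULT4A1 had the largest log2 fold change of the 6 genes in both comparisons with solvent, and it missed the threshold in both.

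The level of SULT4A1 rested on 34 to 187 estimated counts per library. The highest library, 3.33 µg/g replicate 4, was 1 of the 2 with a low ALB share, and 33.3 µg/g replicate 1, the highest of its dose, was the other. Without them the log2 fold change was 0.59 at 33.3 µg/g and 0.54 at 3.33 µg/g (edgeR adjusted p = 0.351 and 0.316). Over all alternative settings the adjusted p ran from 0.114 to 0.492 at 33.3 µg/g and from 0.0732 to 0.342 at 3.33 µg/g. With both doses pooled against solvent, a contrast chosen after seeing these values, the log2 fold change was 0.69 (SE 0.21, edgeR adjusted p = 0.114), with 8 of 10 treated libraries above every solvent library. In that contrast 0 of the 6 members passed, beside 1.96% of all tested genes.

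SULT6B1, another sulphotransferase gene, was near the limit of detection. Estimated counts per library were 3 to 13 with solvent, 5 to 18 with the lower dose and 7 to 23 with the higher one. In CPM these were 0.124, 0.351, 0.143, 0.173 and 0.486 with solvent, 0.520, 0.454, 0.215, 0.189 and 0.368 at 3.33 µg/g, and 0.441, 0.444, 0.300, 0.353 and 0.348 at 33.3 µg/g. The group means were 0.377 ± 0.063 CPM at 33.3 µg/g and 0.255 ± 0.157 CPM with solvent (SD, n = 5 each), and the solvent libraries covered the whole range at the higher dose. The log2 fold change was 0.56 at 33.3 µg/g (95% interval −0.30 to 1.43, edgeR adjusted p = 0.705) and 0.47 at 3.33 µg/g (−0.40 to 1.34, adjusted p = 0.649). Leaving out the 2 libraries of low ALB share gave 0.51 and 0.62 (edgeR adjusted p = 0.767 and 0.583). The 95% intervals with all libraries were wider than those of any other member against solvent. The part of depth in that width was not tested.

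UGT8, the galactosyltransferase, stood at 47.5, 52.9, 53.0, 46.0 and 37.1 CPM in the solvent libraries and at 45.5, 25.9, 43.8, 47.6 and 33.1 CPM at 3.33 µg/g. At 33.3 µg/g it stood at 32.6, 29.1, 37.7, 40.5 and 36.2 CPM. All 5 libraries at 33.3 µg/g lay below the solvent median of 47.5 CPM, and 3 of them lay below every solvent library; solvent replicate 5, at 37.1 CPM, was within the range of the higher dose. The mean was 35.2 ± 4.48 CPM at 33.3 µg/g and 47.3 ± 6.52 CPM with solvent (SD, n = 5 each), a log2 fold change of −0.43 (SE 0.16, 95% interval −0.76 to −0.09, edgeR adjusted p = 0.302). The mean at 3.33 µg/g was 39.2 ± 9.32 CPM (SD, n = 5), with a log2 fold change against solvent of −0.27 (SE 0.16, 95% interval −0.60 to 0.06, edgeR adjusted p = 0.449). UGT8 was the only member whose value was negative at both doses. The sign held in all alternative settings of both comparisons. Values ran from −0.51 to −0.36 at 33.3 µg/g and from −0.35 to −0.15 at 3.33 µg/g, and UGT8 passed in none of these settings. It was −0.40 and −0.35 without the 2 libraries of low ALB share (edgeR adjusted p = 0.424 and 0.378).

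GSTK1 is a glutathione transferase of mitochondria and peroxisomes. It stood at 404.3, 445.3, 390.0, 470.3 and 397.0 CPM in the solvent libraries, a coefficient of variation of 8.25%. At 3.33 µg/g it stood at 348.5, 416.2, 403.7, 228.2 and 467.6 CPM, and at 33.3 µg/g at 326.2, 398.9, 509.4, 643.6 and 518.2 CPM. The lowest libraries of each dose were those of low ALB share, 3.33 µg/g replicate 4 and 33.3 µg/g replicate 1. The dose means lay on opposite sides of the solvent mean, and neither difference passed. The mean was 479.3 ± 121.7 CPM at 33.3 µg/g, against 421.4 ± 34.8 CPM with solvent (SD, n = 5 each; log2 fold change 0.19, SE 0.19, edgeR adjusted p = 0.818). With the lower dose it was 372.8 ± 91.3 CPM (SD, n = 5; log2 fold change against solvent −0.18, SE 0.19, edgeR adjusted p = 0.720). At 33.3 against 3.33 µg/g the log2 fold change was 0.36 (SE 0.19, 95% interval −0.04 to 0.76, edgeR adjusted p = 0.943). Without the 2 libraries of low ALB share the log2 fold change was 0.30 at 33.3 µg/g and −0.04 at 3.33 µg/g (edgeR adjusted p = 0.436 and 0.927).

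GSTZ1, also called maleylacetoacetate isomerase, had the smallest fitted biological coefficient of variation of the 6 genes, although among the solvent libraries alone GSTK1 varied less (8.25%, against 13.1% for GSTZ1). It stood at 226.0, 249.2, 217.8, 261.1 and 301.1 CPM in the solvent libraries and at 264.9, 331.7, 300.5, 283.7 and 330.9 CPM at 3.33 µg/g. At 33.3 µg/g it stood at 267.3, 267.3, 310.6, 312.0 and 333.5 CPM. Every treated library lay above the solvent median of 249.2 CPM, but solvent replicate 5 lay among them. The mean was 298.2 ± 29.6 CPM at 33.3 µg/g and 251.0 ± 32.9 CPM with solvent (SD, n = 5 each), a 1.19-fold level with an interval of 1.02 to 1.38 (log2 fold change 0.25, SE 0.10, edgeR adjusted p = 0.395). With the lower dose the mean was 302.4 ± 29.3 CPM (SD, n = 5), a 1.2-fold level with an interval of 1.03 to 1.4 (log2 fold change 0.27, SE 0.10, edgeR adjusted p = 0.230). The log2 fold change stayed between 0.20 and 0.32 at 33.3 µg/g and between 0.22 and 0.34 at 3.33 µg/g over the alternative settings. GSTZ1 passed in none of them. It was 0.29 at both doses without the 2 libraries of low ALB share (edgeR adjusted p = 0.346 at 33.3 µg/g and 0.259 at 3.33 µg/g).

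**Figure D2:**
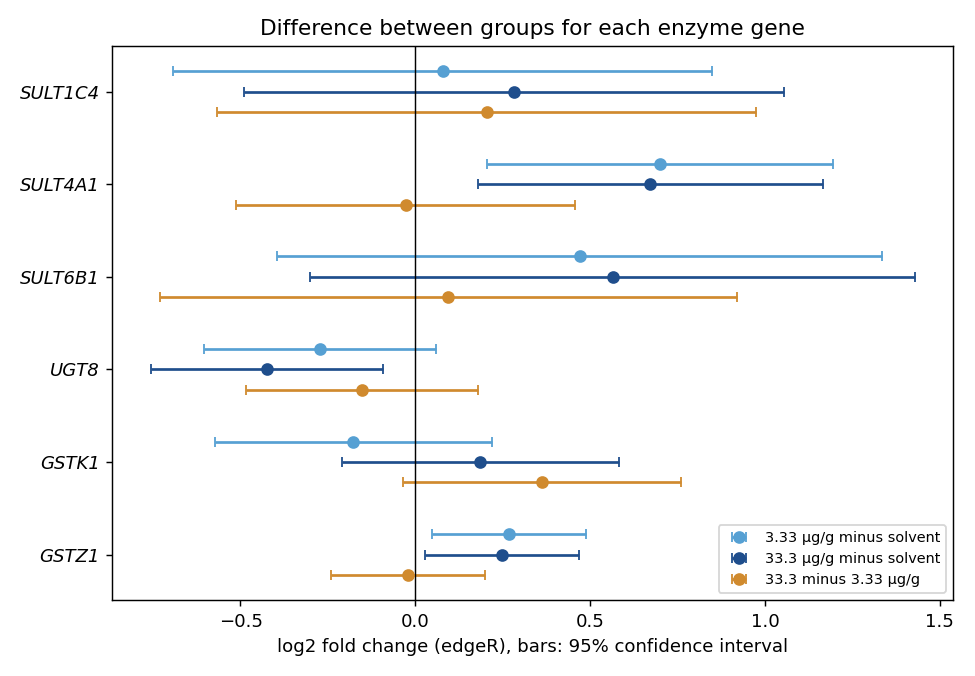
Log2 fold change (horizontal axis) with its 95% confidence interval from edgeR for each conjugating enzyme gene, at 3.33 µg/g minus solvent, 33.3 µg/g minus solvent and 33.3 minus 3.33 µg/g. Unadjusted intervals of SULT4A1 and GSTZ1 at both doses and of UGT8 at 33.3 µg/g lie off 0, none of these passed after adjustment over 14508 genes, and every interval between the doses spans 0.

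Between the doses no member passed, and every interval spanned 0. GSTK1 had the largest log2 fold change at 33.3 against 3.33 µg/g, 0.36 (95% interval −0.04 to 0.76, unadjusted p = 0.0708 and adjusted p = 0.943 in edgeR). The value was −0.03 for SULT4A1 (95% interval −0.51 to 0.46), −0.02 for GSTZ1 (−0.24 to 0.20) and −0.15 for UGT8 (−0.48 to 0.18). SULT1C4 gave 0.20 (−0.57 to 0.97) and SULT6B1 0.09 (−0.73 to 0.92). The interval of GSTZ1 bounds a dose difference to between a 0.847-fold and a 1.15-fold level, and the others are wider. The comparisons of each dose with solvent share the same 5 solvent libraries, so likeness between them is not independent of those libraries.

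The libraries of low ALB share were placed unevenly among the members. In 3.33 µg/g replicate 4, SULT1C4 (18.8 CPM) and GSTK1 (228.2 CPM) were the lowest of all 15 libraries, whereas SULT4A1 (4.59 CPM) was the highest. In that library the listed bile duct markers, 3 of 5 with an entry, summed to 220 CPM, within the range of 123 to 242 CPM in the solvent libraries. Its SPP1 level was 83 CPM and its SOX9 level 42.2 CPM, against 8.94 to 13.4 CPM and 1.53 to 4.12 CPM with solvent. EPCAM, the third marker, went the other way: it was at 94.7 CPM in that library and 74.7 CPM in 33.3 µg/g replicate 1, below every solvent library (107 to 230 CPM). SPP1 was at 66.9 CPM and SOX9 at 11.2 CPM in 33.3 µg/g replicate 1, and at 62.3 and 10.2 CPM in 3.33 µg/g replicate 3, whose ALB share was 9.71%. SPP1 also lay above every solvent library in 33.3 µg/g replicates 2, 3 and 4, at 18.3, 23.9 and 18.4 CPM. SOX9 in those libraries was at 4.48, 3.23 and 2.71 CPM. No listed bile duct marker was at 0 in every library. The part of such cells in the levels of the enzyme genes was not tested.

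**Figure D3:**
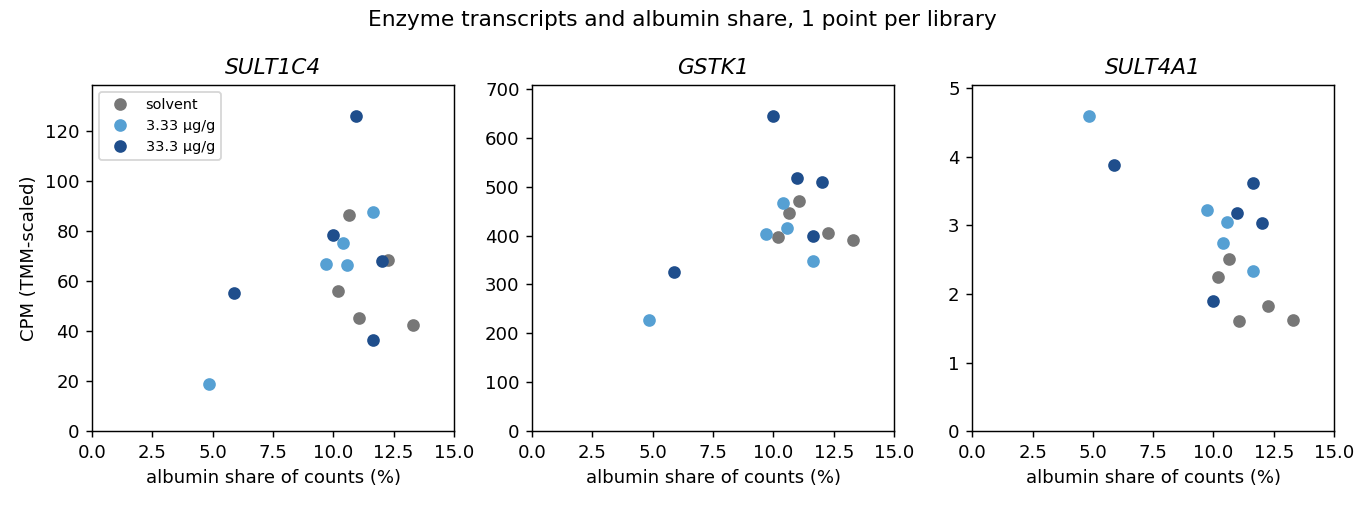
CPM on TMM-scaled totals of SULT1C4, GSTK1 and SULT4A1 (vertical axes, from 0) against the share of each library's counts taken by ALB (horizontal axis, percent), with 1 point per library in the colour of its group. The libraries at 4.85% and 5.87% hold the lowest GSTK1 levels, 228.2 and 326.2 CPM, and the library at 4.85% holds the lowest SULT1C4 and the highest SULT4A1 level.

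The transcript entries behind each gene were looked at because estimated counts can move between entries. SULT6B1 had 1 entry, SULT1C4, SULT4A1 and GSTK1 had 2 each, and UGT8 and GSTZ1 had 3 each. In GSTK1 and GSTZ1 the leading entry held at least 97.6% and 91.5% of the gene's counts in every library. In UGT8 its share was 65.9% to 97.5% with solvent, 66.2% to 92.9% with the lower dose and 72.5% to 91.0% with the higher one. In SULT1C4 its share was 70.4% to 88.0% with solvent, 62.9% to 97.2% with the lower dose and 74.3% to 87.2% with the higher one. In SULT4A1 its share was 54.6% to 100% with solvent (median 100%), 79.9% to 100% with the lower dose (median 85.9%) and 81.6% to 100% with the higher one (median 100%). The ranges overlapped between groups in these 3 genes, and the sums per gene used above do not depend on how entries were split.

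The members did not lie next to each other in the order of genes along the chromosomes of the Coturnix japonica 2.1 gene table. Among their 12 immediate neighbours, 0 were members and 7 were tested. With edgeR 0 of those 7 passed at either dose, beside 1.08% of all tested genes at 33.3 µg/g and 1.38% at 3.33 µg/g. At an unadjusted p under 0.05 there were 0 of the 7, beside 10.8% and 14.6%. DESeq2 called 0 of the 7, beside 386 and 656 of all tested genes, and limma-voom 0, beside 111 and 134. The log2 fold changes of the 7 ran from −0.10 to 0.76 at 33.3 µg/g and from −0.01 to 0.67 at 3.33 µg/g.

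Conjugation needs activated donors, and the genes that supply them were examined as a list of 11, all tested. With edgeR 0 of 11 passed at 33.3 µg/g (3 at an unadjusted p under 0.05) and 0 at 3.33 µg/g (2), with median log2 fold changes of 0.05 and 0.02. Of all tested genes 1.08% and 1.38% passed, and 10.8% and 14.6% had an unadjusted p under 0.05. DESeq2 called 0 and 1 of the 11, beside 386 and 656 of all 14508 tested genes. Limma-voom called 0 of the 11 at either dose, beside 111 and 134. PAPSS1, a synthase of the sulphate donor PAPS, had the smallest p of the list at both doses. It averaged 24.6 ± 3.57 CPM at 33.3 µg/g and 17.9 ± 1.60 CPM with solvent (log2 fold change 0.46, SE 0.14, edgeR adjusted p = 0.169). Its mean at 3.33 µg/g was 25.6 ± 5.57 CPM (0.52, SE 0.14, edgeR adjusted p = 0.0778), and DESeq2 called it there (adjusted p = 0.0173). The log2 fold changes of PAPSS1 were 0.39 and 0.40 without the 2 libraries of low ALB share (edgeR adjusted p = 0.168 and 0.124). The other PAPS synthase gene, PAPSS2, had log2 fold changes of −0.15 and −0.11. UGDH, which makes the glucuronate donor, had −0.22 at 33.3 µg/g and −0.40 at 3.33 µg/g (edgeR adjusted p = 0.705 and 0.258). GCLC, the catalytic subunit of the enzyme that limits glutathione synthesis, had 0.34 and 0.30 (edgeR adjusted p = 0.422 and 0.378).

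Transcription factors and cofactors that control hepatic enzyme genes in vertebrates lay mostly below solvent without passing. Of the 17 listed, 14 had an entry and 13 were tested. Those not tested were AHRR, KEAP1, NR1I2 and NR1I3. With edgeR 0 of 13 passed at either dose, while 5 at 33.3 µg/g and 7 at 3.33 µg/g had an unadjusted p under 0.05, beside 10.8% and 14.6% of all tested genes. Their median log2 fold change was −0.23 at 33.3 µg/g and −0.28 at 3.33 µg/g, against 0.00 over all tested genes, and 1 of 13 (NR5A2, at 0.00) was not below 0 at 33.3 µg/g and 0 of 13 were above 0 at 3.33 µg/g; of all tested genes 50% and 50.8% were above 0. Without the 2 libraries of low ALB share the medians were −0.23 and −0.24, 2 and 1 of the 13 were above 0, and 3 and 5 had an unadjusted p under 0.05, beside 10.1% and 13.4% of all genes then tested. HNF4A, a nuclear receptor that sustains hepatocyte genes, averaged 34.9 ± 7.74 CPM at 3.33 µg/g and 55.4 ± 10.9 CPM with solvent (log2 fold change −0.66, SE 0.18, edgeR adjusted p = 0.0843). At 33.3 µg/g HNF4A averaged 42.2 ± 9.5 CPM (−0.39, SE 0.18, edgeR adjusted p = 0.448). The coactivator gene PPARGC1A had −0.61 at 33.3 µg/g (SE 0.16, edgeR adjusted p = 0.102) and −0.49 at 3.33 µg/g (adjusted p = 0.159). AHR, the receptor for dioxin-like compounds, had −0.42 and −0.50 (edgeR adjusted p = 0.5 and 0.271), and NFE2L2, which controls many glutathione genes, −0.23 and −0.08 (0.470 and 0.778). DESeq2 called PPARGC1A (adjusted p = 0.018) and ONECUT1 (0.0419) at 33.3 µg/g and HNF4A (0.0167) and FOXA2 (0.037) at 3.33 µg/g, and limma-voom called 0 of the 13. Over all 14508 tested genes DESeq2 called 386 at 33.3 µg/g and 656 at 3.33 µg/g, and limma-voom 111 and 134. HNF4A had −0.57 at 3.33 µg/g and PPARGC1A −0.64 at 33.3 µg/g when the 2 libraries of low ALB share were left out (edgeR adjusted p = 0.161 and 0.143).

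Other enzymes of xenobiotic and steroid metabolism gave 1 of 23 tested genes that passed at 33.3 µg/g, and it rose, and 0 of 23 at 3.33 µg/g. Of all tested genes 1.08% and 1.38% passed. The list held 35 genes, 23 of them with an entry. At 33.3 µg/g 8 of the 23 had an unadjusted p under 0.05 in edgeR, beside 10.8% of all tested genes. DESeq2 called 3 there (XDH, AKR1D1 and MGST2) and limma-voom called 1, XDH, beside 386 and 111 of all 14508 tested genes. At 3.33 µg/g 3 of the 23 had an unadjusted p under 0.05 in edgeR, beside 14.6% of all tested genes. There DESeq2 called 1, XDH, and limma-voom called 0, beside 656 and 134 of all tested genes. XDH, xanthine dehydrogenase, which oxidises purines and some drugs, stood at 98.9, 159.9, 150.6, 121.4 and 148.9 CPM at 33.3 µg/g and at 68.4, 53.0, 89.4, 62.4 and 77.3 CPM with solvent. Each library of the higher dose lay above every solvent library, as in 1.84% of all tested genes. Its log2 fold change was 0.96 (SE 0.19, edgeR adjusted p = 0.0209), and it also passed with DESeq2 (0.000203) and with limma-voom (0.0336). Leaving out both libraries of low ALB share gave 1.05 (edgeR adjusted p = 0.0203). That call ended without any of solvent replicates 1, 2 and 4 and 33.3 µg/g replicates 2, 3 and 5 (adjusted p 0.054 to 0.0704). With the lower dose XDH stood at 66.1, 128.5, 136.3, 109.0 and 123.3 CPM, a log2 fold change against solvent of 0.68 (SE 0.19) that missed the threshold in edgeR (adjusted p = 0.0944). It passed with DESeq2 (0.0192) and in edgeR without 3.33 µg/g replicate 1 (0.0158).

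Within the same list AKR1D1, a reductase of bile acid and steroid metabolism, averaged 229 ± 92.5 CPM at 33.3 µg/g and 468 ± 107 CPM with solvent (log2 fold change −1.03, SE 0.31, edgeR adjusted p = 0.176). DESeq2 called it (adjusted p = 0.0326), and also MGST2, a microsomal glutathione transferase, with 0.46 (edgeR adjusted p = 0.125, DESeq2 adjusted p = 0.0402). At 3.33 µg/g AKR1D1 had −0.92 (SE 0.31, edgeR adjusted p = 0.165) and MGST2 0.045 (SE 0.13, edgeR adjusted p = 0.915). STS, steroid sulphatase, which reverses oestrogen sulphation, had −0.47 at 33.3 µg/g and −0.15 at 3.33 µg/g (edgeR adjusted p = 0.354 and 0.770). When the 2 libraries of low ALB share were left out, AKR1D1 had −0.82 at 33.3 µg/g (edgeR adjusted p = 0.0973) and MGST2 0.53 (0.0608). The median log2 fold change of the 23 genes was −0.04 at 33.3 µg/g and −0.03 at 3.33 µg/g, and 0.08 and −0.02 without those 2 libraries.

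P450 enzymes carry haem and receive electrons from partner proteins, so both lists were examined although no P450 gene was. Of 8 genes of haem synthesis, all tested, 1 fell at 33.3 µg/g and 0 passed at 3.33 µg/g, beside 1.08% and 1.38% of all tested genes. At 3.33 µg/g 1 (ALAD) had an unadjusted p under 0.05 in edgeR, beside 14.6% of all tested genes. DESeq2 and limma-voom called 0 of the 8 there, beside 656 and 134 of all tested genes. ALAD, the enzyme that makes porphobilinogen, stood at 29.4, 24.7, 29.2, 31.4 and 36.7 CPM at 33.3 µg/g and at 47.4, 41.9, 42.0, 38.4 and 43.0 CPM with solvent. Each of these 33.3 µg/g libraries lay below every solvent library, as in 1.07% of all tested genes. The log2 fold change of ALAD was −0.49 (SE 0.11, edgeR adjusted p = 0.0461), and it also passed with DESeq2 (0.00384), limma-voom (0.0467) and a replicate block (0.0414). The call ended without any 1 solvent library, without 33.3 µg/g replicate 1, 2, 3 or 4 and without 3.33 µg/g replicate 1, 4 or 5 (adjusted p 0.0502 to 0.127), and without the 2 libraries of low ALB share (0.114). It also ended with library totals alone (0.0709), in the fit to only the 2 groups compared (0.0522) and with the erythroid (0.0677) or chromosome Z (0.0502) covariate. The log2 fold change itself was −0.48 without the 2 libraries, −0.50 with library totals alone, and −0.49 in the fit to 2 groups and with either covariate. When 1 library was left out it ran from −0.57 to −0.43. With the lower dose ALAD had a log2 fold change of −0.32 (SE 0.11, edgeR adjusted p = 0.174). The summed erythroid markers, 3 of 10 with an entry, were 83.9 to 153 CPM at 33.3 µg/g and 90.2 to 166 CPM with solvent. ALAS1, the rate-limiting haem enzyme of liver, averaged 63.3 ± 20.1 CPM at 33.3 µg/g and 87.5 ± 24.5 CPM with solvent (−0.47, SE 0.33, edgeR adjusted p = 0.692). Of the electron partners 2 of 7, FDX1 and FDXR, had an entry. POR, CYB5A, CYB5B, CYB5R3 and FDX2 had none under those symbols, so they were not examined. FDX1 and FDXR did not pass at either dose, with log2 fold changes of −0.02 to 0.36. DESeq2 and limma-voom called 0 of them, beside 386 and 111 of all tested genes at 33.3 µg/g and 656 and 134 at 3.33 µg/g. In edgeR 1, FDXR at 3.33 µg/g, had an unadjusted p under 0.05, beside 14.6% of all tested genes.

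**Figure D4:**
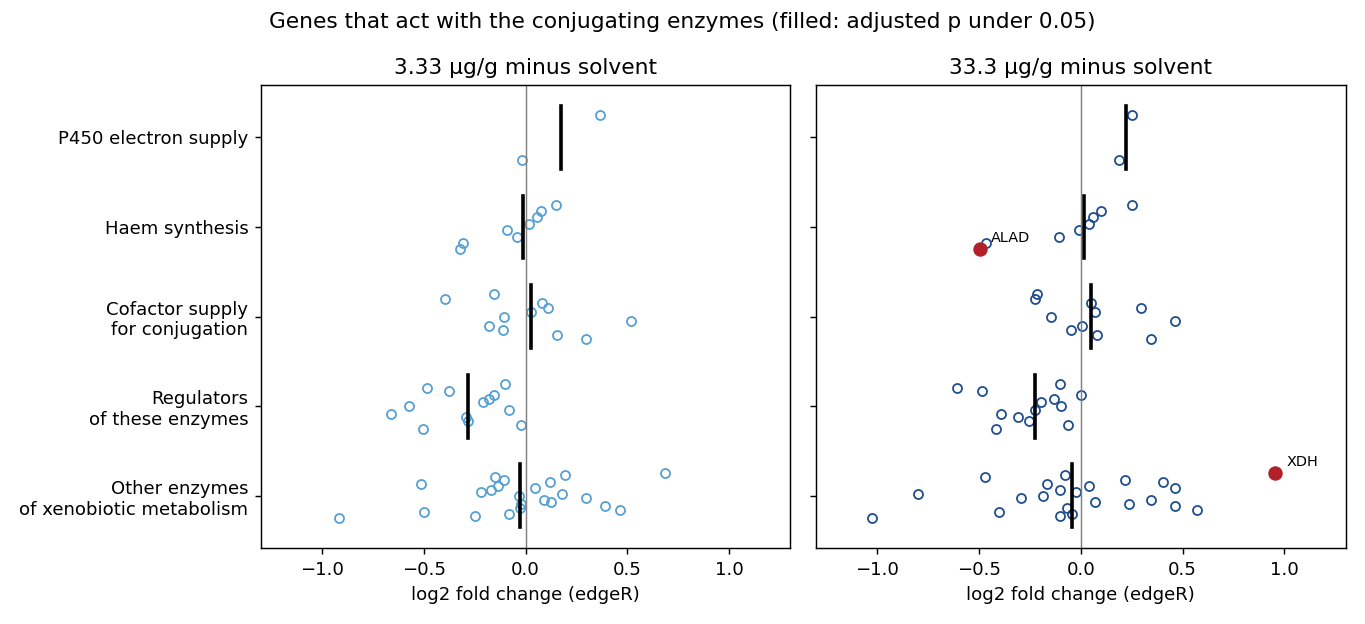
Log2 fold change from edgeR (horizontal axes) at 3.33 µg/g minus solvent and 33.3 µg/g minus solvent of each tested gene in 5 lists of related genes, with the list median as a black bar. Filled points, XDH and ALAD at 33.3 µg/g, passed at an adjusted p under 0.05, and the regulators lie mostly left of 0 at both doses.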

How the data were processed

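The authors quantified reads with kallisto, per the submitters' processing notes, which name no version, index or build. They deposited estimated counts, also called expected counts, for 47418 transcript entries, each named by an NCBI gene ID, with no normalization. Entries were summed per ID and rounded to whole numbers, giving 20308 IDs, of which 18900 matched the gene table and 12972 had a symbol. All 15 columns were used. Because the transcript index may rest on another build, no coordinates are given, and because transcript lengths were not at hand, levels are not compared between genes.

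edgeR 4.0.16 in R 4.3.3 was run with filterByExpr, TMM factors and the robust quasi-likelihood test on all 15 libraries, testing 14508 genes. P-values were two-sided, adjusted by Benjamini-Hochberg over all genes tested, with a threshold of 0.05. SE is the absolute log2 fold change over the square root of F. The members, lists, classes and rules were chosen with earlier results of these data known. Named members were those passing, those with the smallest p or the highest level in each class; with 6 members all are described. Among related genes those with edgeR or DESeq2 calls are named, and the others were chosen after their values were seen. The lists get no set test. The scripts were tested on simulated data. Alternatives used limma 3.58.1 and DESeq2 1.42.0 among others. Intervals cover the spread between libraries. Among 30 pairs of replicates no copies were seen (chi-square per degree of freedom at least 27). Figures used Python 3.11.15, pandas 2.3.3 and matplotlib 3.10.9.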

Additional observations from a re-analysis of the deposited data

Results flagged for a closer look

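The ALB share of 3.33 µg/g replicate 4 was 4.85% of the counts, far from the 9.71% to 11.6% of the other 4 libraries of that dose. It was the 1 value marked among 27 groups of 5 examined, which covered the 6 conjugating enzyme genes, XDH, ALAD and the ALB share; chance marks about 1 group in 20. None of the enzyme genes had a library that stood apart by the same measure.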

How the results depend on the processing

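The count of conjugating enzyme genes that passed was 0 in each direction and comparison under every alternative run. Over all genes, calls at 33.3 µg/g against solvent were 157 and became 386 with DESeq2, 101 with a replicate block, 248 at an adjusted p under 0.1, 285 for both doses pooled against solvent, and 93 to 194 when 1 library was left out (93 without solvent replicate 1, 103 without solvent replicate 4). Calls at 3.33 µg/g against solvent were 200 and became 656 with DESeq2, 117 with a replicate block, 469 at an adjusted p under 0.1 and 111 to 264 when 1 library was left out (111 without solvent replicate 1, 117 without 3.33 µg/g replicate 3). Between the doses calls were 0 and became 19 with DESeq2 and 2 at an adjusted p under 0.1. The cause was not tested. The labels link same-numbered libraries only by that number. Of their 15 pairs 1 had residuals correlated above 0.1, and 0 libraries were closest to one of the same number. Whether they share a batch was not tested. The replicate block changed no call among the 6 genes.

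Signs turned in the following values, none of which passed. For SULT1C4 at 3.33 µg/g against solvent the log2 fold change was −0.042 with limma-voom and −0.071 to 0.313 when 1 library was left out; at 33.3 µg/g it was −0.007 to 0.453 (0.282 with all libraries, −0.007 without 33.3 µg/g replicate 5), and between the doses −0.085 to 0.375 (0.204 with all libraries). GSTK1 gave 0.004 for both doses pooled, which is another comparison than the −0.177 at 3.33 µg/g. At 3.33 µg/g its sign held when 1 library was left out (−0.272 to −0.041). Between the doses SULT6B1 gave −0.113 without the 2 libraries of low ALB share and −0.055 to 0.276 with 1 library left out, GSTZ1 −0.064 to 0.017 with 1 library left out, and SULT4A1 0.020 with limma-voom, 0.021 with the chromosome Z covariate, 0.050 without those 2 libraries and −0.124 to 0.138 with 1 library left out. SULT6B1 gave no value in the filter of at least 1 CPM in 5 libraries or, against solvent, in the fit to only the 2 groups compared. Pooling the doses was chosen after seeing the data. Estimated counts were lowest for SULT6B1 and SULT4A1.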
